A study of Homo sapiens with 8 samples.

Results

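The window of chromosome 8 from 126500000 to 128500000 (GRCh38, also called hg38) holds MYC and 5 neighbours, PVT1, CCAT1, CASC8, CASC11, and POU5F1B, and was examined for replication origins in 4 lines of HCT116 colon cancer cells. An origin is an interval on the origin list of a line. Intervals of the 4 lists and 3 count tables that overlapped by at least 1 bp were joined, which gave 57 merged origins in the window out of 56863 on chromosomes 1 to 22, X, and Y. An origin was assigned to a gene where it overlapped the gene body or the 10 kb on either side. By this rule 21 merged origins belonged to the 6 genes and 36 to none of them.

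In SNS-seq, newly made DNA strands that are still short are purified and sequenced, and they pile up at the places where replication has started. It was applied to HCT116 p53-/- epithelial cells (WT) and to ORC1KO, ORC2KO, and ORC5KO cells, which were derived from them by CRISPR–Cas9 inactivation of ORC1, ORC2, or ORC5, so that all 4 lines share the loss of p53. Each genotype is 1 line, grown in McCoy's 5A medium without further treatment, with 2 biological replicates a line and 8 samples in all. A trace of truncated ORC2 protein has been reported in the ORC2KO line by another group, and the authors of the study did not detect it. In what was analysed here the replicates of a line are merged, so no spread between replicates and no p-value can be given, and a difference between lines has no replicate check. The counts are of DNA at origins and say nothing about whether the ORC1, ORC2, or ORC5 protein was lost.

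MYC encodes a transcription factor that drives growth and cell division, and it is a central target of the Wnt pathway in colon cancer. The DNA around it is a gene desert with enhancers that act on MYC and with risk variants for colorectal cancer, and its neighbours are mostly long noncoding RNAs. PVT1 follows MYC on the same strand and is often amplified with it, CCAT1 is a noncoding RNA named for its high level in colon cancer, CASC8 and CASC11 are noncoding RNAs of the cancer susceptibility region, and POU5F1B is a retrogene copy of the stem cell factor POU5F1. Replication starts where MCM2–7 helicases were loaded, and ORC is the complex that loads them. A zone of initiation close to MYC is among the earliest mapped human origins.

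Origins were found at all 6 genes or close to them in the WT line, and in every knockout line at 5 or 6 of the genes. The WT list has 25 origins in the window (of 30197), the ORC1KO list 39 (of 33535), the ORC2KO list 31 (of 37813), and the ORC5KO list 34 (of 41332). Relative to WT, the number in the window was 1.56 times as high in ORC1KO, 1.24 times in ORC2KO, and 1.36 times in ORC5KO, where the whole lists were 1.11, 1.252, and 1.37 times as long. The ratio for ORC1KO was thus higher here than over the genome, and on chromosome 8 as a whole its list was 1.37 times as long as the WT list.

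**Figure D1:**
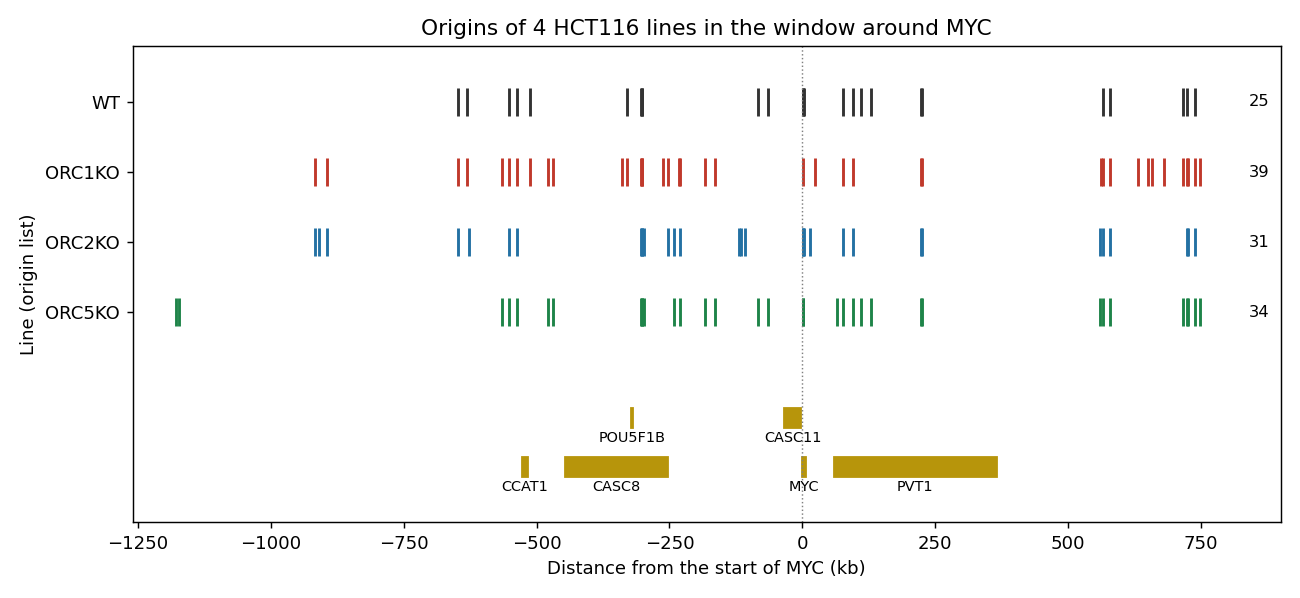
Origins of the 4 lines in the window, each drawn as a tick at its distance from the start of MYC in kb, with the number on each list at the right and the 6 gene bodies below. The WT list has 25 origins, the ORC1KO list 39, and no line has an origin in the 65.9 kb up to the first origin of MYC or in the 333 kb from the middle of PVT1 onwards.

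The window was fairly rich in origins. Over 1442 windows of 2 Mb the WT list has a median of 11 origins (quartiles 4 and 26), and 73.5% of the windows have fewer than the 25 around MYC. For ORC1KO the median is 14.5, and 82.1% of the windows have fewer than 39. The corresponding shares are 72.3% for ORC2KO and 71.3% for ORC5KO.

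Of the 57 merged origins in the window, 14 were on all 4 lists, which is 24.6% (95% Wilson interval 15.2% to 37.1%), against 31.9% over the genome. The WT list holds 25 of them, or 43.9% (31.8% to 56.7%; 52.7% over the genome). Origins on the ORC1KO list alone numbered 9, or 15.8% (8.54% to 27.4%), against 7.56% over the genome. Those on the ORC2KO list alone numbered 6 (10.5% against 8.45%), and those on the ORC5KO list alone 3 (5.26% against 11.3%). The pair of ORC1KO and ORC5KO, with no other line, shared 6 origins, or 10.5%, against 3.62% over the genome. Only 2 origins (3.51%, against 7.29%) were on all 3 knockout lists and not on the WT list. No origin was on the WT list alone (0 of 57, which allows a share of up to 5.26%; 4.34% over the genome).

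Seen from the WT list, each of the 25 had a counterpart in some knockout line (0 of 25 without one, which allows a share of up to 12.0%). A counterpart was present in ORC1KO for 19 of them, or 76.0% (95% Wilson interval 56.6% to 88.5%), against 71.1% of all WT origins. In ORC2KO there were 17, or 68.0% (48.4% to 82.8%), against 78.6%, and in ORC5KO 20, or 80.0% (60.9% to 91.1%), against 82.6%. All 3 knockout lines had a counterpart for 14 WT origins, or 56.0% (37.1% to 73.3%), against 60.4%. Each genome share lies within the interval of the window.

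The tables give the number of reads of WT and of 1 knockout line in each joined origin. In the window there are 45 origins in the table of WT and ORC1KO, 39 in that of WT and ORC2KO, and 39 in that of WT and ORC5KO, and the 3 comparisons use the same WT reads. The total reads of a line in a table ranged from 6416892 to 8523971, and the median count of an origin of the window from 121 to 159 reads, with the lowest at 40. Reads were scaled to 1000000 reads of the line in the table (RPM). The log2 fold of a knockout line over WT has a 95% interval, computed by the exact Clopper-Pearson method from the knockout line's share of the 2 counts, which covers counting error only. Reads that are duplicates of one molecule would make the true error larger. More frequent use of an origin and more copies of its DNA in a line cannot be told apart, since the copy number of the lines was not measured here.

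In ORC1KO most origins of the window had more reads than in WT, while ORC2KO and ORC5KO stayed near or slightly below WT. An origin is called up or down where the change is at least 1.5-fold. In ORC1KO 3 of 45 origins were up (7.04% of all origins in the table) and 0 were down (3.95%). The median log2 fold was 0.18, with quartiles at 0.03 and 0.38, a range of −0.42 to 0.90, and 36 of 45 origins above 0. The median of all origins in the table was −0.01, with 48.4% above 0, and 69.7% of those on chromosome 8 were above 0. Summed over the window, 5790 WT reads stood against 6962 ORC1KO reads, a log2 fold of 0.21 (0.16 to 0.26). Part of this comes from origins that entered the table only through a peak in ORC1KO. Over the 25 origins on the WT list the sum was 0.08 (0.015 to 0.15), with 16 above 0. The 20 others had a sum of 0.38 (0.30 to 0.46), with all 20 above 0. By its own interval, 11 origins lay above 0, 1 below, and 33 included it. The share of such intervals over all origins was not computed, so nothing is read from these counts. The size of the ORC1KO shift depends on the scaling. With reads scaled to those on chromosome 8 alone, every ORC1KO log2 fold and interval is lower by 0.14, the median is 0.04 with 27 of 45 above 0, the sum is 0.06 (0.01 to 0.11), 2 origins are up, and 4 origins have an interval above 0 and 3 below.

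In ORC2KO 0 of 39 origins were up (4.66% of all origins in the table) and 3 were down (3.58%). The median log2 fold was −0.08, with 14 of 39 above 0, and the sums of 4877 WT and 5434 ORC2KO reads gave −0.08 (−0.13 to −0.02). Median-of-ratios, TMM, and chromosome 8 scaling left 2 origins down in ORC2KO, and with each of them the interval of the sum included 0 (−0.04, −0.04, and −0.03). In ORC5KO 0 of 39 were up (2.08%) and 1 was down (0.68%). Its median was −0.02, with 19 of 39 above 0, and its sums of 5277 WT and 6517 ORC5KO reads gave −0.005 (−0.06 to 0.05). Of the 27 merged origins of the window that are in all 3 tables, 0 were up in all 3 lines (1.61% of such origins over the genome) and 0 were down in all 3 (0.144%) by these values.

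At 2-fold, 0 origins of the window were up or down in any line. Over all origins in the table, 1.71% were up and 0.339% down in ORC1KO, 1.43% and 0.484% in ORC2KO, and 0.269% and 0.0452% in ORC5KO. Such shares would give few calls in a set of this size, so nothing is read from the 0. At a lower threshold of 0.32 on the log2 scale, 14 of 45 were up (18.8% of all origins) and 2 down (16.8%) in ORC1KO. By that threshold 1 of 39 was up (12.0%) and 5 down (14.7%) in ORC2KO, and 3 of 39 were up (8.74%) and 2 down (6.42%) in ORC5KO.

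**Figure D2:**
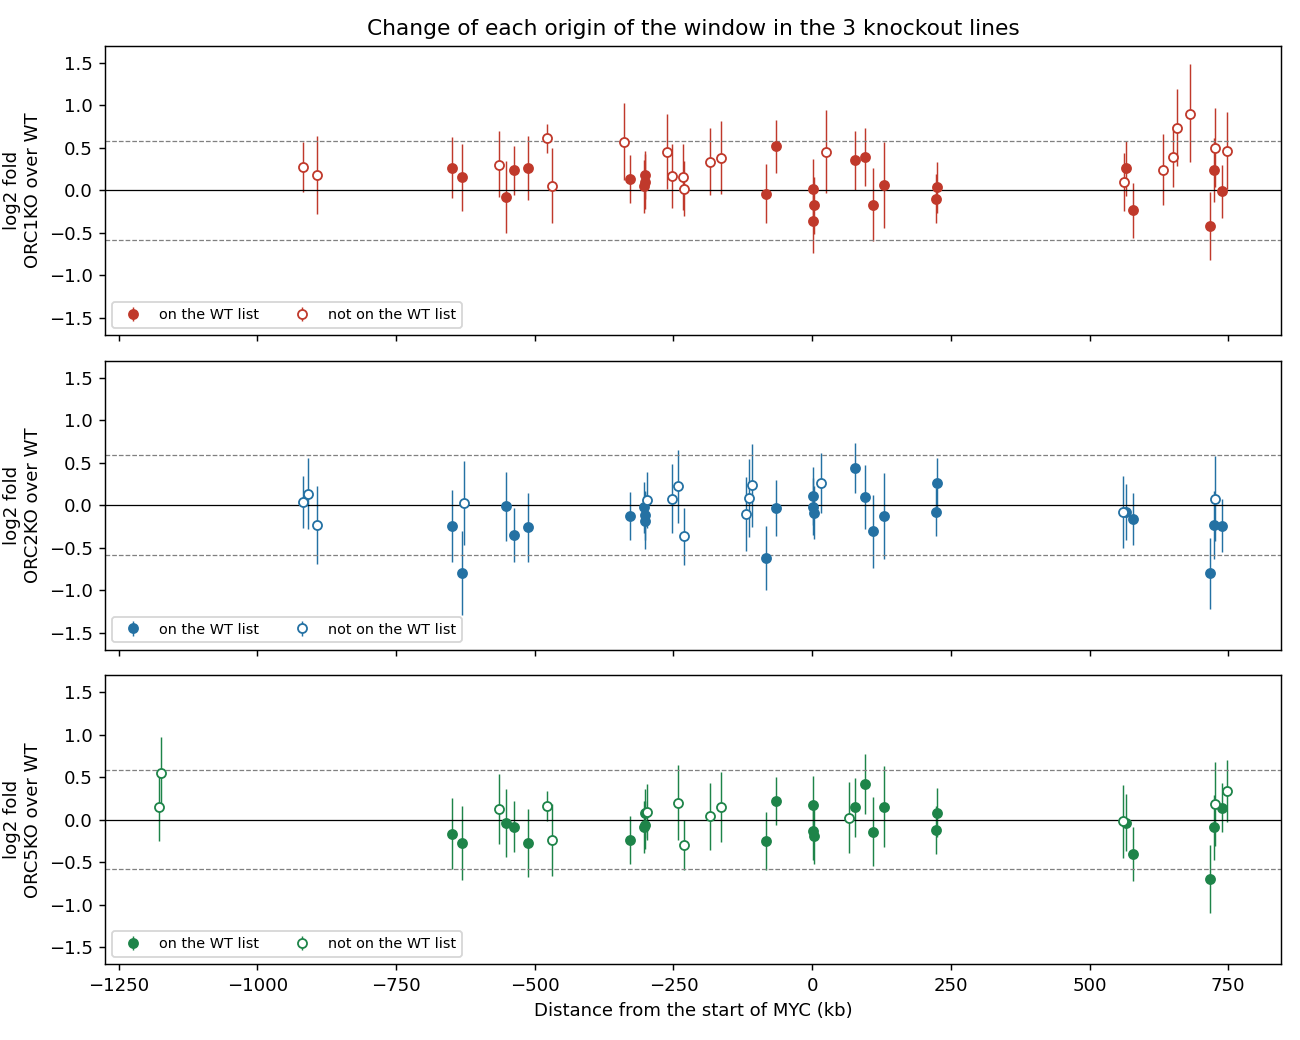
Log2 fold of each knockout line over WT (vertical axis, 1 panel a line) at every origin of the window, by distance from the start of MYC in kb. Bars are 95% Clopper-Pearson intervals for counting error, filled points are origins on the WT list, open points are not, and dashed lines mark 1.5-fold. With reads scaled to the total, as drawn, all 20 open points lie above 0 in ORC1KO (17 with chromosome 8 scaling), and 3 points lie above the upper line. Open points are chosen through the knockout line, and 85.4% of such origins over the genome were above 0 in ORC1KO.

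Origins on the WT list and the others differed in these folds, partly by how they were chosen, since an origin missing from the WT list enters a table through the knockout line. In ORC1KO the median log2 fold was 0.07 for the 25 origins on the WT list and 0.36 for the 20 that were not on it, against −0.12 and 0.31 over the genome. In ORC2KO the medians were −0.13 for 25 and 0.07 for 14 origins, and in ORC5KO −0.08 and 0.14. The origins that were not on the WT list did have WT reads. Their median WT level in the table of ORC1KO was 30.1 RPKM (RPM per kb of origin), where origins of the window on the WT list had 37.9 RPKM, and over the genome the medians were 26.5 and 37.0.

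At MYC itself the WT line has 3 origins, all inside the gene body, and no line has one shortly before the start of the gene. In the RefSeq annotation MYC runs from 127735434 to 127742951 on the forward strand. The exons of the GENCODE transcript used here are at 127736084 to 127736623, 127738248 to 127739019, and 127740396 to 127741434. Introns named below are those of this transcript, and exons of other GENCODE transcripts of MYC overlap the origins placed in intron 1. With 10 kb on either side of the gene body, MYC has the densest set of the 6 genes, with 10.9 WT origins per 100 kb. The others had 6.27 at CCAT1, 5.62 at CASC11 (the same 3 origins), 4.21 at POU5F1B, 1.88 at CASC8, and 1.84 at PVT1. With 50 kb on either side MYC had 2.79, below POU5F1B (3.85) and CASC11 (3.75), so the order depends on the margin. The value of MYC rests on 3 origins in a short region.

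The first origin, from 127736675 to 127737126, begins 52 bp after the end of exon 1, within intron 1, and 1241 bp after the start of the gene. It is on all 4 lists. Reads were 134 in WT and 141 in ORC1KO, 130 in WT and 164 in ORC2KO, and 127 in WT and 178 in ORC5KO, where the WT count differs by table because the joined interval does. Its log2 folds were 0.01 (−0.34 to 0.37), 0.10 (−0.24 to 0.45), and 0.18 (−0.16 to 0.52), each interval including 0.

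The second, from 127737446 to 127737941, also lies in intron 1. It is on the WT, ORC2KO, and ORC5KO lists and not on the ORC1KO list. Reads were 133 in WT and 108 in ORC1KO, a log2 fold of −0.36 (−0.74 to 0.02), which is the lowest value of an origin at the 6 genes in any line. In ORC2KO it had 158 reads against 136 in WT (−0.02), and in ORC5KO 159 against 141 (−0.14). With a GC content of 64.3% it has the highest in the window.

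The third, from 127738710 to 127739267, covers the end of exon 2 and the beginning of intron 2, and is the only one of the 57 that overlaps a coding sequence. It is on the WT and ORC2KO lists. Reads were 156 in WT and 144 in ORC1KO (−0.18, −0.51 to 0.16), 160 and 177 in ORC2KO (−0.09), and 156 and 169 in ORC5KO (−0.19). The ORC1KO line thus keeps 1 of the 3 origins of the MYC gene on its list. With reads scaled to the total, its reads at the other 2 remain within counting error of WT. With chromosome 8 scaling the second origin was at −0.50, and 1 of the 3 had an interval below 0.

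The last origin, from 127750079 to 127750784, lies past the end of MYC and is on the ORC2KO list alone, with 117 WT and 165 ORC2KO reads (log2 fold 0.26, −0.09 to 0.62). Summed over the origins at MYC, the log2 fold was −0.17 (−0.37 to 0.04) in ORC1KO, 0.06 (−0.11 to 0.22) in ORC2KO, and −0.05 (−0.24 to 0.14) in ORC5KO. Each interval included 0, but with chromosome 8 scaling the ORC1KO sum was −0.31 (−0.51 to −0.11), which excludes it. With the GC trend removed the median of the MYC origins in ORC1KO was −0.02.

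CASC11, on the reverse strand from 127700608 to 127733967, starts close to MYC and runs away from it. No origin of any line lies in its RefSeq body, while GENCODE begins it at 127738987, which puts the MYC origins inside both genes. It has an origin only through the 3 inside MYC, which fall in the 10 kb before its start, so its sums are those of MYC except in ORC2KO, where the origin past the end of MYC is not included and the sum was −0.0054 (−0.19 to 0.18). The 65.9 kb from 127670736 to 127736675, which include the whole of CASC11, held no origin of any line. The origin at the far edge of this stretch, from 127670036 to 127670736, is on the WT and ORC5KO lists and belongs to none of the 6 genes. Its 144 WT reads stood against 215 in ORC1KO, a log2 fold of 0.52 (0.21 to 0.83), the highest of the 25 origins on the WT list in that line, although it is not on the ORC1KO list.

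PVT1, a noncoding RNA host of several microRNAs, runs from 127794524 to 128101256 and has 7 merged origins, all within the gene. The WT list has 6 of them, ORC1KO 4, ORC2KO 4, and ORC5KO 7. All lie in the part of the gene before 127961448. From there no line has an origin for 333 kb, past the end of the gene, the longest empty stretch of the window.

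The PVT1 origin nearest the start, from 127800679 to 127801182, is on the ORC5KO list alone, with 89 WT and 112 ORC5KO reads (log2 fold 0.02, −0.39 to 0.44). The one with the highest mean log2 fold over the tables, from 127811963 to 127812766, is on all 4 lists. It had 124 WT and 165 ORC1KO reads (0.35, 0.007 to 0.70), 163 WT and 259 ORC2KO reads (0.43, 0.15 to 0.73), and 124 WT and 170 ORC5KO reads (0.15, −0.20 to 0.49). All 3 knockout lines were above WT here, and in ORC1KO and ORC2KO the interval lay above 0. Its ORC2KO value was the highest of the window in that line. With chromosome 8 scaling its ORC1KO value was 0.21, with an interval that included 0.

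The next one, from 127830132 to 127830831, is also on all 4 lists and was 0.39 (0.05 to 0.73) in ORC1KO, 0.09 in ORC2KO, and 0.42 (0.07 to 0.77) in ORC5KO. With chromosome 8 scaling its ORC1KO value was 0.25, and that interval included 0 as well. The lowest mean was at 127845050 to 127845452, on the WT and ORC5KO lists, with 97 WT reads against 90 in ORC1KO (−0.17), 92 in ORC2KO (−0.31), and 109 in ORC5KO (−0.14), each interval including 0. The PVT1 origin with the most WT reads, from 127958841 to 127959507, had 200 in each table and is on all 4 lists. Against these stood 195 in ORC1KO (−0.10), 222 in ORC2KO (−0.08), and 228 in ORC5KO (−0.12). The sums over PVT1 were 0.10 (−0.04 to 0.24), 0.11 (−0.03 to 0.24), and 0.07 (−0.06 to 0.20), each interval including 0. With chromosome 8 scaling the ORC1KO sum was −0.04 (−0.18 to 0.10), and the ORC2KO sum had an interval above 0 with that scaling (0.16, 0.02 to 0.29), with median-of-ratios (0.15), and with TMM (0.15).

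CCAT1 lies on the reverse strand from 127207382 to 127219268 and has no origin in its body, but 1 on either side within 10 kb. The origin from 127198270 to 127199191 is on all 4 lists. It had 181 WT and 222 ORC1KO reads (0.23, −0.06 to 0.53), 173 WT and 159 ORC2KO reads (−0.36, −0.68 to −0.04), and 175 WT and 205 ORC5KO reads (−0.08, −0.38 to 0.22). The origin from 127223703 to 127224205 is on the WT and ORC1KO lists and had 109 WT and 136 ORC1KO reads (0.26), 105 WT and 103 ORC2KO reads (−0.26), and 105 WT and 108 ORC5KO reads (−0.27).

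Both CCAT1 origins were therefore above WT in ORC1KO and below it in ORC2KO and ORC5KO. The sums gave 0.24 (0.02 to 0.47) in ORC1KO, −0.32 (−0.57 to −0.07) in ORC2KO, and −0.15 (−0.39 to 0.09) in ORC5KO. CCAT1 was the only one of the 6 genes with an interval below 0 in ORC2KO, with each of the 4 scalings. In ORC1KO its sum was 0.10 (−0.13 to 0.33) with chromosome 8 scaling, and the median of its origins was 0.02 with the GC trend removed.

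CASC8, on the reverse strand from 127289676 to 127482139, has 8 merged origins, 4 on the WT list, 7 on the ORC1KO list, 5 on the ORC2KO list, and 4 on the ORC5KO list. The origin at its start, from 127481704 to 127482272, covers an exon and is on the ORC1KO and ORC2KO lists. It had 110 WT and 129 ORC1KO reads (0.17, −0.21 to 0.55) and 93 WT and 115 ORC2KO reads (0.07). A group of 3 origins between 127432568 and 127435153 is on all 4 lists, and its log2 folds ranged from 0.05 to 0.18 in ORC1KO, from −0.19 to −0.03 in ORC2KO, and from −0.08 to 0.07 in ORC5KO.

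The highest value in CASC8 was at 127395318 to 127395741, on the ORC1KO list alone, with 71 WT and 110 ORC1KO reads (0.57, 0.13 to 1.02), just under the threshold. Another origin of the ORC1KO list alone, from 127473233 to 127473598, had 77 and 110 reads (0.45, 0.02 to 0.89). With chromosome 8 scaling the 2 were at 0.43 and 0.31, each with an interval that included 0, and with the GC trend removed at 0.34 and 0.43. All 7 CASC8 origins in the table of ORC1KO were above 0, and their sum was 0.19 (0.07 to 0.32). With chromosome 8 scaling 4 of the 7 were above 0 and the sum was 0.05 (−0.07 to 0.18), and with the GC trend removed 6 of 7 were above 0. The 7 include origins that are not on the WT list and were chosen through ORC1KO, which favours values above 0. With reads scaled to the total, the 4 on the WT list ranged from 0.05 to 0.18, each interval including 0. In ORC2KO the sum was −0.07 (−0.19 to 0.06) and in ORC5KO −0.05 (−0.18 to 0.08).

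The retrogene POU5F1B, within CASC8 on the opposite strand from 127413447 to 127417224, has 1 origin, which it shares with CASC8. GENCODE begins the gene at 127322183, which gives it 2 origins and an ORC1KO sum of 0.26. The origin assigned by RefSeq, from 127406155 to 127406649, lies before the RefSeq start but inside the GENCODE gene, and is on the WT and ORC1KO lists. It had 198 WT reads in each table, against 227 in ORC1KO (0.14, −0.14 to 0.42), 213 in ORC2KO (−0.13, −0.41 to 0.16), and 208 in ORC5KO (−0.24, −0.53 to 0.05). It has the lowest mean log2 fold in CASC8, and the most WT reads.

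Per length it is the strongest WT origin of the window, with 62.3 RPKM (exact Poisson interval 54.0 to 71.7) in the table of ORC1KO. In the same table the WT level over all origins of a gene was 48.1 RPKM (43.6 to 52.9) at MYC, 45.5 RPKM (42.7 to 48.5) at CASC8, 37.3 RPKM (34.7 to 39.9) at PVT1, and 31.7 RPKM (28.2 to 35.6) at CCAT1, against 36.0 RPKM in the window. In this order of levels, the intervals of the neighbours MYC and CASC8 overlap, as do those of PVT1 and CCAT1, and their differences were not tested. In ORC1KO the level was 52.0 RPKM (49.1 to 55.1) at CASC8 and 42.9 RPKM (38.7 to 47.3) at MYC, and there the intervals do not overlap. Whether they overlap depends on the origins summed. In the table of ORC2KO, WT had 38.1 RPKM (34.95 to 41.4) at MYC and 48.6 RPKM (45.6 to 51.8) at CASC8. The intervals of these 2 genes do not overlap there in WT or in ORC2KO, and in the table of ORC5KO they overlap in both lines.

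**Figure D3:**
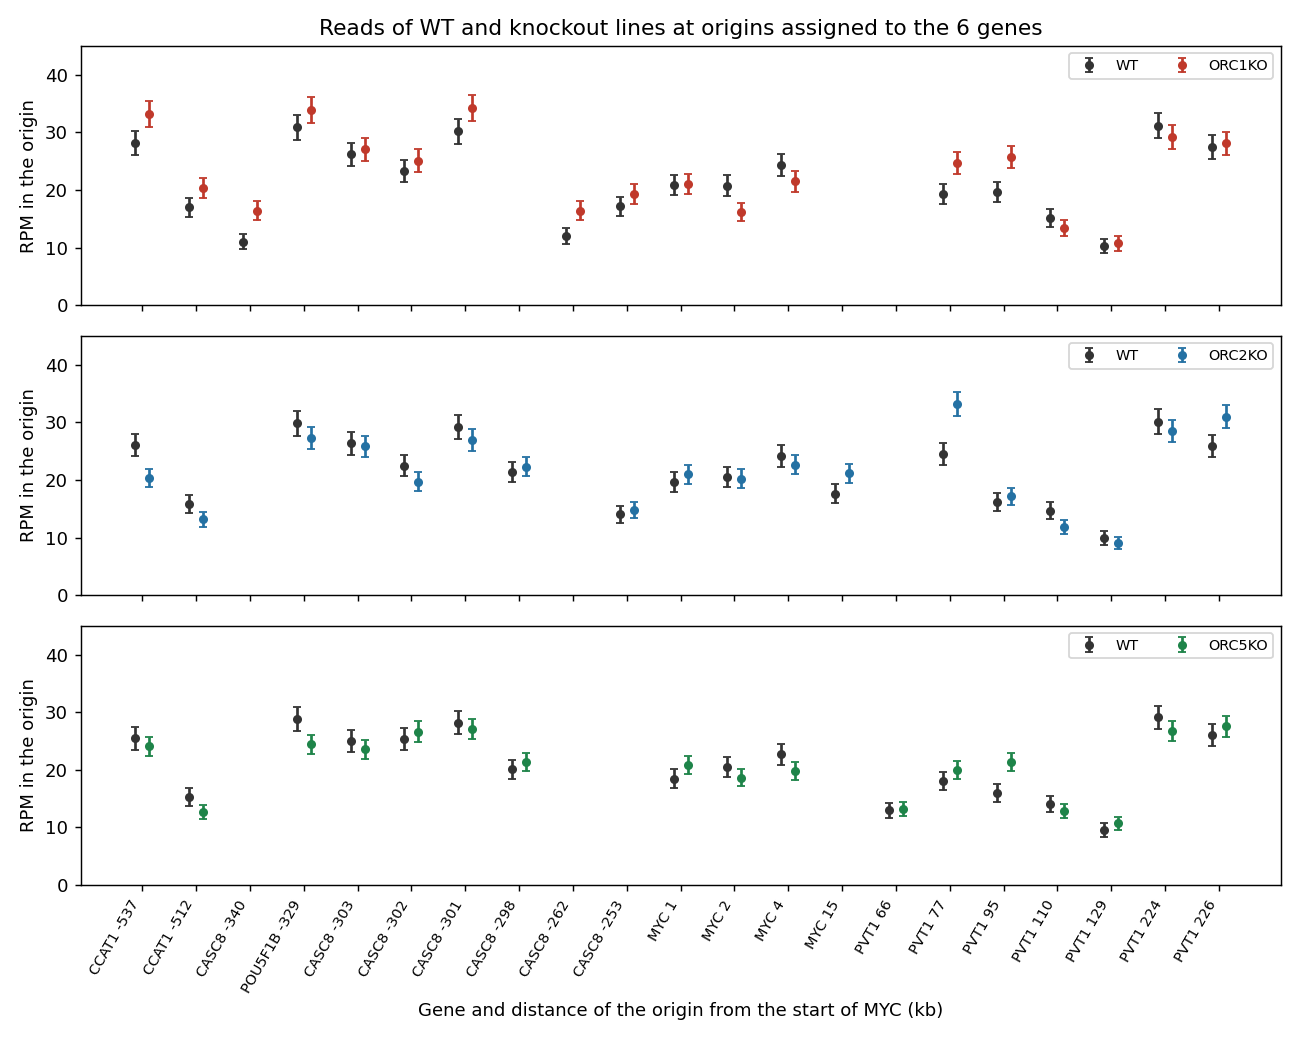
RPM of WT and of each knockout line (1 panel a line) at the 21 origins assigned to the 6 genes, named by gene and by distance from the start of MYC in kb, with a gap where the table has no such origin. Bars are ± the counting error, the square root of the count. CASC11 shares the first 3 MYC origins and CASC8 the one labelled POU5F1B. With reads scaled to the total, as drawn, both CCAT1 origins and all 7 of CASC8 lie above WT in ORC1KO (2 and 4 with chromosome 8 scaling), while the MYC origins at 2 and 4 kb lie below it. Of the 7 CASC8 origins only 4 are on the WT list, and the others were chosen through ORC1KO.

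At the origins of the 6 genes 0 of 18 were up or down in ORC1KO, where 7.04% and 3.95% of all origins in the table were, 0 of 18 in ORC2KO (4.66% and 3.58%), and 0 of 17 in ORC5KO (2.08% and 0.68%). Such shares would give few calls in a set of this size, so nothing is read from these counts. The calls of the window were at the other origins. The median log2 fold in ORC1KO was 0.12 at the 18 origins of the genes and 0.26 at the 27 others. In ORC2KO it was −0.05 and −0.08, and in ORC5KO −0.06 and 0.01. Among the merged origins at the genes 15 of 21 were on the WT list and 9 on all 4, and among the others 10 of 36 and 5. The median GC content was 50.5% at the genes and 44.98% elsewhere.

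The origin of the window with the most WT reads lies between CCAT1 and CASC8, from 127257132 to 127258617. It is on the ORC1KO and ORC5KO lists and not on the WT list, although it had 465 WT reads in the table of ORC1KO and 462 in that of ORC5KO. Against these stood 741 ORC1KO reads, a log2 fold of 0.61 (0.44 to 0.78), which is up by total reads but not with the GC trend removed (0.48) or with chromosome 8 scaling (0.47), and 639 ORC5KO reads (0.16, −0.02 to 0.33). It is also the widest of the window, with 1486 bp, the next being 991 bp. Its absolute GC skew, the excess of G over C or of C over G as a share of both, was 0.613, the highest of the 57 and above that of 93.7% of the origins in the table of ORC1KO.

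The other calls up in ORC1KO were both on its list alone, past PVT1. The origin from 128392472 to 128392950 had 67 WT and 116 ORC1KO reads (0.73, 0.29 to 1.19), which is not a call with the GC trend removed (0.52), and that from 128415841 to 128416182 had 40 and 78 (0.90, 0.34 to 1.49), the fewest WT reads of any origin in the window, which is also up with the GC trend removed and with chromosome 8 scaling. Over the 9 origins on the ORC1KO list alone, WT reads ranged from 40 to 137, and the median log2 fold was 0.45, with 9 of 9 above 0 (8 with chromosome 8 scaling and 7 with the GC trend removed). Such origins are chosen by a peak in ORC1KO and none in WT, which favours values above 0. Of all 4298 such origins of the genome, 3804 were above 0, and their median was 0.35.

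The origin that was lowest over the 3 lines, picked after its values were seen, lies from 128452021 to 128452641 in the noncoding gene LINC00824. Its 123 WT reads in each table stood against 96 in ORC1KO (−0.42, −0.82 to −0.02), 83 in ORC2KO (−0.80, −1.22 to −0.39), and 94 in ORC5KO (−0.70, −1.10 to −0.30). All 3 intervals lay below 0, and the call down was reached in ORC2KO and ORC5KO. With the GC trend removed it was also down in ORC1KO (−0.64). It is on the WT, ORC1KO, and ORC5KO lists. The other calls down in ORC2KO were at 127103837 to 127104355, with 90 WT and 61 ORC2KO reads (−0.79, −1.29 to −0.31), and at 127652687 to 127653400, with 140 and 107 (−0.62, −0.998 to −0.25), both on the WT list and not on the ORC2KO list. The latter was −0.57 and no longer down with chromosome 8 scaling.

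The shift of the window in ORC1KO was also that of its chromosome. On chromosome 8 the median log2 fold was 0.16 in ORC1KO, rank 2 of 24 chromosomes from the highest, −0.09 in ORC2KO (rank 23), and −0.02 in ORC5KO (rank 23). In the 10 Mb before the window the ORC1KO median was 0.19 over 180 origins, and in the 10 Mb after it 0.18 over 232. Of 65 windows of 2 Mb on chromosome 8 with at least 10 origins, 64 had a median above 0 in ORC1KO, with a range of −0.09 to 0.47 and a median of 0.20, and the window of MYC had 0.18. In ORC2KO 58 of 59 such windows had a median below 0.

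**Figure D4:**
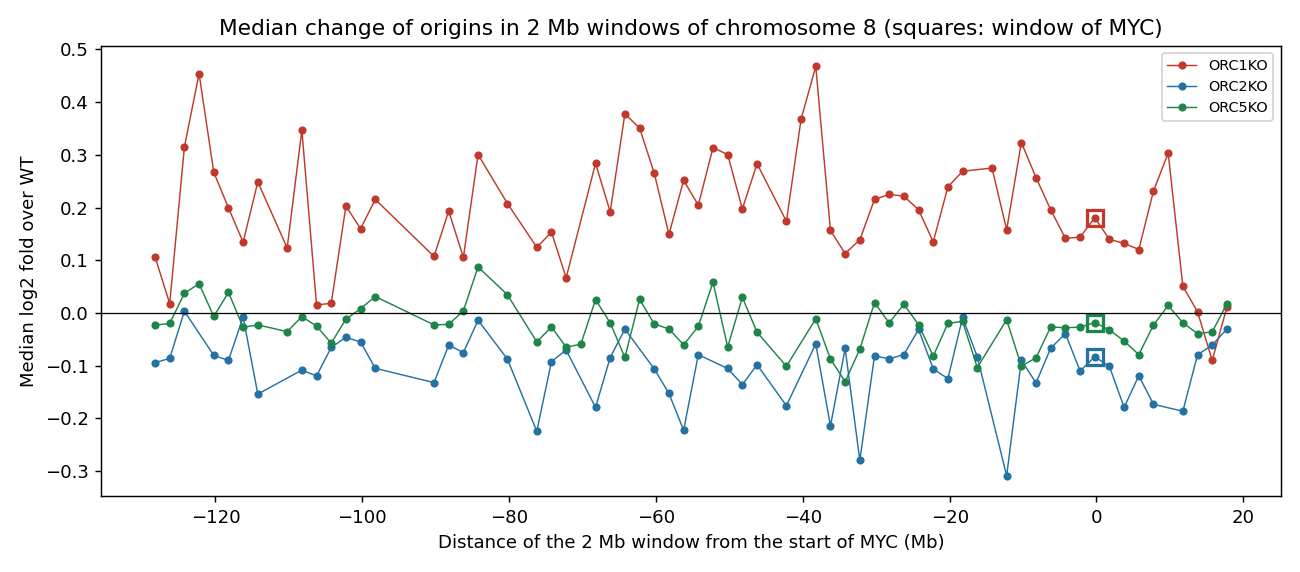
Median log2 fold of each knockout line over WT (vertical axis) for origins in 2 Mb windows of chromosome 8, by distance of the window from that of MYC in Mb, for windows with at least 10 origins. Squares mark the window of MYC, at 0.18 in ORC1KO, −0.08 in ORC2KO, and −0.02 in ORC5KO, inside the range of the other windows in each line.

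The GC content of origins also went with the change in ORC1KO. After a running median of the log2 fold over GC content was removed, the median of the window was 0.03, with 29 of 45 origins above 0 and 14 of the 20 that are not on the WT list. The part of the copy number of chromosome 8 in these values was not tested.

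The origins of the window were poorer in G and C than those of the genome in all 4 lines. The median GC content was 50.6% against 54.9% in WT, 45.7% against 52.3% in ORC1KO, 48.3% against 53.3% in ORC2KO, and 48.4% against 53.2% in ORC5KO. The range over the 57 origins was 36.3% to 64.3%, and the origins in the MYC gene, with 52.9%, 64.3%, and 60.8%, were at the high end. A G-quadruplex motif, here 4 runs of at least 3 G with loops of 1 to 7 bases on either strand, was present in 36.0% of the WT origins of the window (9 of 25) against 56.5% of all WT origins, and in 23.1% of the ORC1KO origins against 47.2%. Of the 3 origins in MYC, the second holds the motif. Absolute GC skew was close to that of the genome, with medians of 0.358 against 0.342 in WT and 0.375 against 0.382 in ORC1KO. The median width of WT origins was 495 bp in the window and 525 bp in all.

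**Figure D5:**
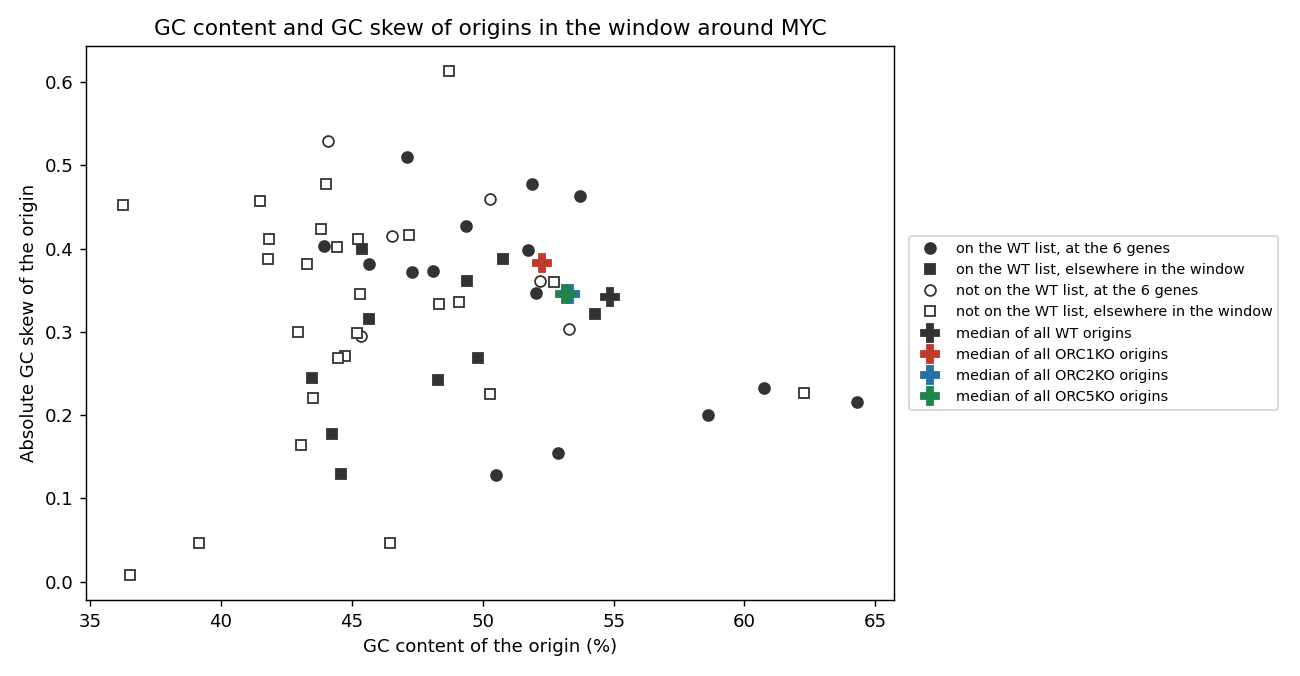
GC content in percent against absolute GC skew of the 57 origins of the window, filled where they are on the WT list, round at the 6 genes, and square elsewhere. Crosses are the medians of all origins of each line. Most points lie to the left of the crosses, and the point at the top, at 0.613, is the wide origin between CCAT1 and CASC8.

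Origins were also counted at 12 other genes of the network in which MYC acts, which were its paralogs MYCN and MYCL, its partner MAX, and MXD1, MXI1, MXD3, MXD4, MNT, MGA, MLX, MLXIP, and MLXIPL, whose proteins pair with MAX or MLX or with each other. Of these, 7 had an origin on the WT list, 22 WT origins in all, and MYCL and MLX had none in any line. In ORC1KO 2 of 27 origins were up (7.04% of all origins) and 2 down (3.95%), with a median log2 fold of −0.08. In ORC2KO 2 of 30 were up (4.66%) and 1 down (3.58%), with a median of −0.02, and in ORC5KO 1 of 35 was up (2.08%) and 0 down (0.68%), with a median of −0.03. These counts are near the shares of all origins. In the ORC1KO line, with reads scaled to the total, the paralog MYCN had a sum of −0.29 (−0.63 to 0.05) over 2 origins. The sums of MNT (−0.33, −0.46 to −0.20) and MXD3 (−0.48, −0.81 to −0.15) had intervals below 0, and that of MLXIPL (0.11, 0.02 to 0.19) above 0. The intervals of the other network genes with origins in that table, and of MYC, included 0.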

How the data were processed

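SNS-seq of 8 samples, 2 biological replicates for each of 4 lines, was analysed. Per the submitters' processing notes and the study's methods, the authors trimmed reads with Trim Galore 0.6.4, aligned them to GRCh38 with Bowtie, ran MACS2 on every replicate, and kept the peaks that both replicates had. The 4 deposited lists hold positions and no other value. The 3 deposited tables hold raw read counts, made by the authors in the joined origins of WT and 1 knockout line with replicates merged. The counting tool and the handling of duplicate reads are not given in the sources used here. Total reads per line and table, other contigs included, ranged from 6416892 to 8523971, and served for scaling, without a pseudocount or a filter on low counts.

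Gene bodies came from RefSeq GRCh38.p14, which names all 6 genes, and exons from GENCODE release 44, which has no gene named CCAT1. For each gene with up to 5 origins every origin was described, and for the others the origin nearest the start, that with the most WT reads, and those with the highest and lowest mean log2 fold. Other origins were named after their values were seen. The members and lists were chosen with earlier results of these data known. Alternatives covered scaling (median-of-ratios, edgeR TMM, reads of chromosome 8), GC content, a minimum of 50 reads, a lower and a higher threshold (0.32 and 1 on the log2 scale), the assignment to genes, the overlap that counts as shared, and the placement of windows. GENCODE gene bodies, and both corrections for single origins, were added after seeing the data. The calls and intervals were tested on simulated data that held counting error alone. The planted changes were larger than any in the window and were not placed at origins with low counts. That test does not cover small changes, low counts, duplicate reads, or spread between replicates. TMM factors came from edgeR 4.0.16 in R 4.3.3, sequence from pysam 0.24.0, intervals from scipy 1.17.1, figures from matplotlib 3.10.9, and all else from pandas 2.3.3 and numpy 2.4.6 in Python 3.11.15.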

Additional observations from a re-analysis of the deposited data

Results flagged for a closer look

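The summed reads of the window had a log2 fold of 0.21 in ORC1KO and −0.078 in ORC2KO, and those of CCAT1 0.24 in ORC1KO and −0.32 in ORC2KO. In both cases the 95% counting intervals of the 2 lines lay on opposite sides of 0 with reads scaled to the total. With chromosome 8 scaling they did not, since the sum of the window in ORC2KO (−0.03, −0.08 to 0.03) and that of CCAT1 in ORC1KO (0.10, −0.13 to 0.33) had intervals that include 0, and with median-of-ratios and TMM scaling the interval of the window in ORC2KO included 0 as well. The sums of the window also hold origins chosen through the knockout line. Over the origins on the WT list, with reads scaled to the total, they were 0.08 (0.015 to 0.15) in ORC1KO and −0.12 (−0.18 to −0.05) in ORC2KO. The difference between the lines was not tested, and the WT cells were the same in both comparisons.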

How the results depend on the processing

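No paired analysis was possible because the tables merge the replicates of a line, which also leaves no replicate to leave out. Of 196 values under other settings, 175 stayed within 1.5 times the count or within the interval of the value, 21 moved, and none changed the direction of a called value. The ORC1KO median of the window became 0.039 with scaling by chromosome 8 reads and 0.031 with the GC trend removed, and this removal left 1 origin up and 1 down in ORC1KO. Chromosome 8 scaling left 2 up in ORC1KO, and it, median-of-ratios, and TMM scaling each left 2 down in ORC2KO. At 2-fold, 0 origins were up in ORC1KO, 0 down in ORC2KO, and 0 down in ORC5KO. At a threshold of 0.32 on the log2 scale, 14 were up and 2 down in ORC1KO, 1 up and 5 down in ORC2KO, and 3 up and 2 down in ORC5KO. Counting error, of a size near the change itself at the counts of most origins, limits what single origins show.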
